A study of Rattus norvegicus with 18 samples.

Results

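The proteasome genes described here are all genes of the rat annotation whose symbol begins with Psm, a letter from a to g and a number. The pattern matched 49 of the 17337 genes in the files. Classes assigned by symbol held 42 of them, called subunits here although chaperone genes such as Psmd10 are among them. They were 15 genes of the core (8 Psma and 7 Psmb, Psmb1 to Psmb7), 3 immunoproteasome genes (Psmb8 to Psmb10) and 24 regulatory genes (6 Psmc, 14 Psmd and 4 Psme). A further 5 genes lay outside these classes: Psmb11, a catalytic subunit known from the thymus, Psmf1, a proteasome inhibitor, and the assembly chaperones Psmg1, Psmg2 and Psmg4. The last 2, Psma3l and Psmc3ip, were set apart. Psma3l overlaps Psma3 over 18902 bases on the same strand, and Psmc3ip is a gene of meiotic recombination whose symbol only begins like that of a subunit.

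The libraries were made from total RNA of rat oligodendrocyte progenitor cells (OPCs), the dividing glial cells that give rise to myelinating oligodendrocytes, enriched with magnetic beads. Primary sorted cells formed 2 groups of 3 libraries, aged and neonate, whose age is given only by the letter A or N of the title. The other 4 groups of 3 held aged or neonate cells grown on soft or on stiff hydrogels, coated with laminin, in medium with FGF and PDGF; strain, sex, age in weeks and gel stiffness in pascals are not given in the labels. Whether replicates were separate animals or cultures is not stated, so each p measures the spread between libraries, which may be technical.

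The proteasome degrades proteins tagged with ubiquitin. Its core is a barrel of stacked rings of Psma and Psmb subunits, of which Psmb5, Psmb6 and Psmb7 carry the proteolytic sites. Under interferon, Psmb8, Psmb9 and Psmb10 are made and take the places of Psmb5, Psmb6 and Psmb7, forming the immunoproteasome, which yields peptides for MHC class I. The regulatory particle, built from Psmc ATPases and Psmd subunits, binds and unfolds tagged proteins. Psme1 and Psme2 form PA28, an interferon-inducible cap that opens the core without ubiquitin, while Psme3 forms a nuclear cap and Psme4 is the activator PA200.

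Promoters are shown for the 4 members on which the results below turn: Psme1 and Psme2, which encode PA28, Psmb5, the subunit gene of highest mean level, and Psmd13, a lid subunit of the regulatory particle. Each sequence is the 250 bases before the start of the gene, 5′ to 3′ on the strand of the gene, from RefSeq on GRCr8, a later build than the rn6 coordinates of the files. They lie at chr15:33038721-33038970 (plus strand), chr15:33052752-33053001 (minus), chr15:32047380-32047629 (minus) and chr1:205393998-205394247 (plus). Capitals mark matches to 4 motifs searched on both strands: GAAA 2 times with any 2 bases between, the core of the interferon-stimulated response element, TTCNNNGAA, the element bound by STAT dimers, TGACNNNGC, the core of the antioxidant response element, and CCAAT.
Psme1: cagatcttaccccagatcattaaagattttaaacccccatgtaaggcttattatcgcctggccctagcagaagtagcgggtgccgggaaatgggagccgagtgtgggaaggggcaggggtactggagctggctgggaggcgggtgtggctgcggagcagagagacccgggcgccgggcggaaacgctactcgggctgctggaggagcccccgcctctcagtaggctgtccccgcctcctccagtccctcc
Psme2: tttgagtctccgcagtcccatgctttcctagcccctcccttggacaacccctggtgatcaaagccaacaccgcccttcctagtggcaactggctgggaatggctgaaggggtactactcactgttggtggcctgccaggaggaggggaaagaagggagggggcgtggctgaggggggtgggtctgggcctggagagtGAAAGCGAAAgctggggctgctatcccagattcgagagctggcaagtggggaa
Psmb5: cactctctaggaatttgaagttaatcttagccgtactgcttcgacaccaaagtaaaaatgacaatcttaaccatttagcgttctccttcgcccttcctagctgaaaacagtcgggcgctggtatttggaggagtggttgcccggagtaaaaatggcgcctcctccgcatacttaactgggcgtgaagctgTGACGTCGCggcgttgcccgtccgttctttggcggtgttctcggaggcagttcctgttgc
Psmd13: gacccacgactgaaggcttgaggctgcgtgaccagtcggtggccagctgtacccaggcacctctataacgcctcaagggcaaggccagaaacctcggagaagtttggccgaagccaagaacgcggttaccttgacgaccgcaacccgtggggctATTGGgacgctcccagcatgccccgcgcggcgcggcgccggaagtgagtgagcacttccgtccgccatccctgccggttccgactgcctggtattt
The Psme1 window held none of the 4 motifs, so none of its letters is in capitals. In the Psme2 window GAAAGCGAAA began 53 bases before the start. Psmb5 held TGACGTCGC at 60 bases before its start, and Psmd13 held ATTGG, the reverse complement of CCAAT, at 96 bases. Promoters were found for 43 of the 49 genes, 38 of them subunits. The interferon core was in 5 of the 38 (Psma4, Psmb3, Psmb10, Psmd7 and Psme2), or 13.2%, against 3.41% of 33469 rat promoters of the same length. Psmb10 held it 2 times, at 73 and 17 bases before the start. The STAT element was in 4 of 38 (10.5%, against 7.67%), the antioxidant core in 7 (18.4%, against 10.1%) and CCAAT in 18 (47.4%, against 34.0%). These matches describe letters in a window and do not show binding.

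Several members are close neighbours on rn6. Psme1 (chromosome 15, 34256071 to 34258947, plus strand) and Psme2 (34265555 to 34269851, minus strand) lie 6607 bases apart. Psmb8 (chromosome 20, 3990809 to 3993772, plus strand) and Psmb9 (3973424 to 3978845, minus strand) flank the peptide transporter gene Tap1, at 1139 and 456 bases. Psmb5 (chromosome 15, 33259039 to 33263634) and Psmb11 are 3778 bases apart. Overlaps with other genes concern Psmd1 (with Htr2b, opposite strand), Psmd11 (with Rnf135, same strand), Psme1 (8 bases of Emc9, opposite strand) and Psmc3ip (44 bases of Mlx, opposite strand). Strand was not used in the counting, so reads in the overlaps on opposite strands cannot be assigned. Psmd11 shares 46569 bases with Rnf135, and Psma3 shares 18902 with Psma3l, on the same strand. Knowing the strand would not separate these pairs, so values of Psmd11, Psma3 and Psma3l are uncertain.

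Depth limits every value below. The libraries held 12.9 to 52.6 aligned megabases, ribosomal RNA took 44.5% to 88.8% of TPM, and 22200 to 105647 read pairs remained outside it at 300 bases per pair. One pair on a transcript of 1 kb was thus worth 4.46 to 20.9 scaled TPM (TPM, a level corrected for transcript length and total, adjusted between libraries), and the median number of pairs per library ran from 0 for the scarcest members to 11.2 for Psma7. A gene listed at 0 may still have been transcribed. Replicate 1 of each aged group covered the most genes (12371 to 14999, against at most 10849 elsewhere) and up to 77.2% of olfactory receptor genes, which these cells are not known to use, and these 3 are called the broad libraries. Checked against their markers, aged primary libraries stood apart from the OPC label: 9 OPC genes summed to 67.3 to 173 scaled TPM there and to 765 to 877 in neonate primary libraries, while 15 microglia genes summed to 2924 to 4815 and 143 to 306. In culture the microglia sum was 423 to 857 (aged soft), 214 to 718 (aged stiff), 51.4 to 122 (neonate soft) and 34.4 to 58.2 (neonate stiff), and the OPC sum 287 to 431, 65.5 to 452, 1291 to 1560 and 822 to 1610. Sums of 8 endothelial genes were also higher in aged than in neonate libraries, without overlap. They were 35.4 to 180 against 19.3 to 27.5 in primary cells. On soft gels they were 52.4 to 108 against 6.33 to 15.3, and on stiff gels 17.7 to 108 against 0 to 3.31. Sums of 8 astrocyte genes overlapped in primary cells and were lower in aged cells on both gels. Oligodendrocyte and neuron sums overlapped between the ages in primary cells and on both gels. In such bulk libraries fewer cells of a type and less RNA per cell cannot be told apart.

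Between 22 (aged stiff replicate 2) and 39 (aged primary replicate 1 and aged soft replicate 1) of the 42 subunit genes were above 0 in a library. Levels were unequal between these genes, which include alternative parts (Psmb8 to Psmb10 and the Psme genes) and chaperone genes such as Psmd10. Over the 18 libraries Psmb5 had the highest mean, 129.7 scaled TPM (lowest 12.8, median 93.3, highest 362). It was followed by Psma7, a core ring subunit, at 126 (32.8, 136 and 236), Psmb7 at 87.2 (6.24, 80.6 and 208), the core subunit gene Psmb4 at 77.8 and the ATPase gene Psmc2 at 70.5. Psme1 came next at 60.1, then the ATPase genes Psmc3 at 59.3 and Psmc1 at 51.7. The lowest means were those of Psma8, a testis form of a core subunit, at 1.19, the ATPase gene Psmc6 at 2.04, the lid gene Psmd12 at 2.50 and Psmb9 at 2.57. The ranges of genes next to each other in this order overlapped, and no order between neighbours is claimed. Psmb6 averaged 7.13 and was above 0 in 9 of 18 libraries, a much lower level than those of Psmb5 and Psmb7.

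**Figure D1:**
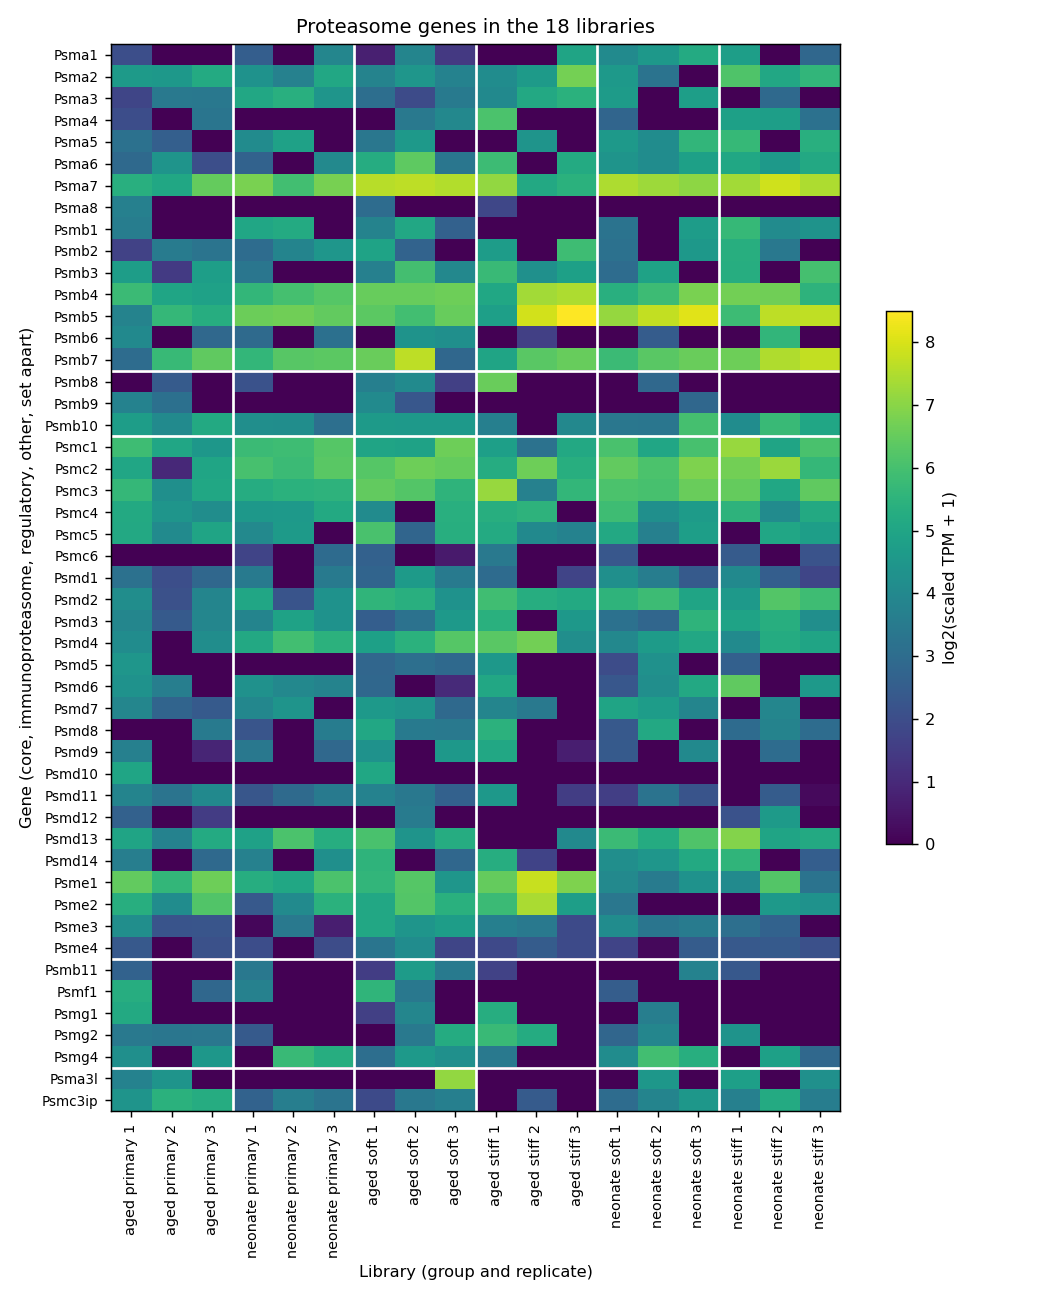
Levels of the 49 proteasome genes (rows, grouped by class) in the 18 libraries (columns, grouped by condition), as log2(scaled TPM + 1), where dark cells are listed at 0. Psma7, Psmb4, Psmb5 and Psmb7 were above 0 in 18 of 18 libraries, while Psma8 was above 0 in 3 and Psmd10 in 2.

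As a class, the 15 core genes summed to a median of 567 scaled TPM over the libraries (228 to 966), the 24 regulatory genes to 567 (204 to 844) and the 3 immunoproteasome genes to 26.4 (0 to 104). Core genes supplied 27.3% to 71.1% of the subunit TPM of a library and regulatory genes 27.8% to 68.2%. The immunoproteasome share did not exceed 7.40%. Within the regulatory class the Psmc genes summed to 87.0 to 386, the Psmd genes to 49.1 to 393 and PA28 to 10.6 to 389.7. The shares need no scaling factor, since both parts of the ratio come from one library.

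Summed over the 42 subunits, aged primary libraries were the lowest of the study and all gel libraries were higher than all primary ones on the scaled TPM. The sums were 836, 467 and 809 in aged primary and 879.7, 907 and 1014 in neonate primary libraries. On gels they were 1369.8, 1458 and 1117 (aged soft), 1412, 1349 and 1358 (aged stiff), 1118, 1083 and 1512 (neonate soft) and 1534, 1541 and 1357 (neonate stiff). The 4 gel groups overlapped each other. The mean log2 sum of aged primary libraries minus that of neonate primary libraries was -0.45 on scaled TPM and -1.02 without scaling. With ribosomal RNA removed from the total (a scale added after seeing the data) it was -1.18. The groups did not overlap on any of these scales. The mean log2 sum of aged gel libraries exceeded that of aged primary libraries by 0.98, 0.86 and 1.28 on the same scales. Without scaling, however, the libraries overlapped (1016 to 1961 on gels against 440 to 1354). For neonate cells the direction depended on the scale, with 0.53, -0.62 and 0.34.

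**Figure D2:**
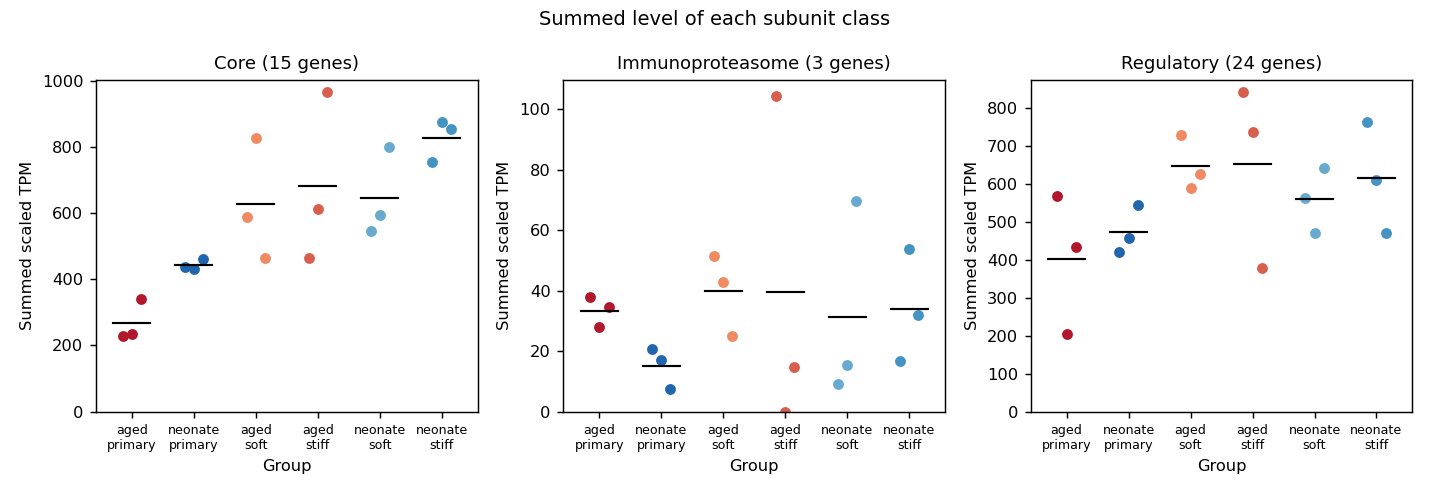
Summed scaled TPM of the core, immunoproteasome and regulatory genes (vertical axes) in each library (points) of the 6 groups, with group means as lines. The core sums of aged primary libraries, 228 to 341, lay under those of all other groups, whose lowest was 431, whereas regulatory sums overlapped between aged and neonate primary libraries.

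Aged and neonate primary cells were compared to ask how these genes differ with age in cells sequenced without culture. The summed level of the core genes was lower in every aged library and PA28 made up a larger share of the subunit TPM, but no single member passed the test. In primary cells and on both gels, aged libraries also had higher microglia and lower OPC sums than neonate ones, as given above. The part of cell composition in any of the age differences below was not tested. By limma on log2(scaled TPM + 1), with p adjusted by Benjamini and Hochberg over the 15144 genes tested and a threshold of 0.05, 0 of the 48 tested members were called, beside 2.6% of all tested genes, and voom also called 0, beside 6.45%. At an unadjusted p under 0.05 there were 3 members, all lower (Psmd4, Psmc2 and Psmb5), beside 3.53% of all tested genes in that direction. The median difference, aged minus neonate, was -0.85 for core genes, -0.41 for regulatory genes and 0.81 for immunoproteasome genes, on a scale where the median of all tested genes was 0.69. Of the core genes 9 of 15 had a difference below 0, and of the 23 tested regulatory genes 13. Relative to all genes the medians were -1.54 for core and -1.10 for regulatory genes. They moved to -0.64 and -0.44 without the broad aged primary replicate 1, and the regulatory one to -0.64 without neonate primary replicate 3. That of the immunoproteasome genes, 0.12, ran from -0.40 to 0.79 over the replicates left out.

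Among core genes, Psmb5 was at 12.8, 49.5 and 38.6 scaled TPM in aged and 96, 99.4 and 86.3 in neonate primary libraries. The groups did not overlap, with means of 33.6 ± 18.8 and 93.9 ± 6.83 (SD, n = 3), and the difference of -1.65 (SE 0.73) had an adjusted p of 0.323 in limma. Psmb7 was at 7.04, 52 and 86 against 48.8, 78 and 81.4, so aged replicate 3 lay above all neonate libraries. The third standard catalytic gene, Psmb6, was at 15.4, 0 and 6.28 against 6.62, 0 and 7.87, which is at most 1.22 read pairs. The core gene with the lowest difference at a mean of at least 20 was Psmb1 (-2.21, SE 1.34), at 11.3, 0 and 0 against 31.6, 36.1 and 0, and Psma2 had the highest (0.39, SE 0.91). Psmb3, below that mean in both groups, stood at 25.9, 1.69 and 26.3 against 9.04, 0 and 0.

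In the regulatory particle, Psmd4, the receptor subunit that binds ubiquitin chains, was at 16.8, 0 and 17 scaled TPM in aged and 34.3, 59.3 and 43.4 in neonate primary libraries. Every aged library was lower, and the difference was -2.74 (SE 0.90, limma, adjusted p = 0.117). The ATPase gene Psmc2 was also lower in every aged library, at 31.9, 0.974 and 31.2 against 63.7, 54.2 and 79.4 (-2.37, SE 0.78, limma, adjusted p = 0.121). Aged primary replicate 2 holds the lowest value of both genes, and without it the differences were -1.33 and -1.0. With array weights, which give less weight to libraries that deviate more, both passed (adjusted p = 0.0251 and 0.0261). Psmc5, another ATPase gene, had the highest difference of the class, 1.84 (SE 1.18, adjusted p = 0.609). Members whose libraries did not overlap between the groups numbered 4 lower (Psma3, Psmb5, Psmc2 and Psmd4) and 2 higher (Psmg2 and Psmc3ip), beside 4.97% and 11.1% of all tested genes, and without scaling 11 were lower and 2 higher. For Psma3 the sum with Psma3l overlapped, at 15.1, 30.0 and 9.49 against 33.6, 40.3 and 20.6.

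PA28 did not share these lower levels. Psme1 was at 87.8, 48.1 and 97.2 scaled TPM in aged and 38.3, 32.8 and 67.6 in neonate primary libraries, and Psme2 at 39.4, 16.4 and 71.7 against 4.19, 15.8 and 42. Both genes overlapped between the groups, with differences of 0.74 (SE 0.72) and 1.25 (SE 1.11), beside the median of 0.69 for all genes. As a share of subunit TPM, PA28 was 15.2%, 13.8% and 20.9% in aged and 4.83%, 5.36% and 10.8% in neonate primary libraries, without overlap. Psme3 was at 17.4, 3.67 and 3.78 against 0.11, 9.75 and 0.648, and Psme4 at 4.17, 0 and 3.35 against 3.06, 0 and 2.93, both overlapping.

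Immunoproteasome genes also formed a larger share of the 6 catalytic genes in aged primary libraries: 51.8%, 21.6% and 20.9%, against 12.1%, 8.78% and 4.14% in neonate ones. Their sum was 37.8, 27.9 and 34.5 scaled TPM against 20.9, 17.1 and 7.58, without overlap, but without scaling it overlapped, at 61.3, 26.3 and 37.9 against 40.4, 29.7 and 12.3. Most of it was Psmb10, at 25.3, 15.6 and 34.5 against 17.4, 17.1 and 7.58, which overlapped (difference 0.81, SE 0.93). Psmb9 reached 12.5 and 7.85 in aged replicates 1 and 2 and was listed at 0 in the third and in all 3 neonate libraries (2.30, SE 1.13, limma, adjusted p = 0.399). Psmb8 was above 0 in aged replicate 2 (4.44) and neonate replicate 1 (3.46) only. These values rest on few read pairs. Over the 18 libraries of the study Psmb10 had a median of 1.58 and a maximum of 5.12 pairs, and Psmb9 a maximum of 1.17. The share of 51.8% came from the broad replicate 1, where Psmb5 to Psmb7 summed to 35.3 scaled TPM, against 101 and 131 in aged replicates 2 and 3. Microglia genes were higher in the aged group, as were the PA28 and immunoproteasome shares. All 15 were above 0 in aged primary libraries and 8 to 11 in neonate ones, and P2ry12, a receptor of resident microglia, was at 621, 1164 and 978 against 38.7, 48.2 and 64.8. Within the aged libraries, replicate 1 had the lowest microglia sum (2924) and the highest immunoproteasome share. Replicate 3 had the highest microglia sum (4815) and the highest PA28 share. Of 10 oligodendrocyte genes 9 were higher and 1 lower in aged primary libraries at an unadjusted p under 0.05, beside 9.21% and 3.53% of all tested genes. The part of microglia or other cells in the PA28 and immunoproteasome shares was not tested.

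**Figure D3:**
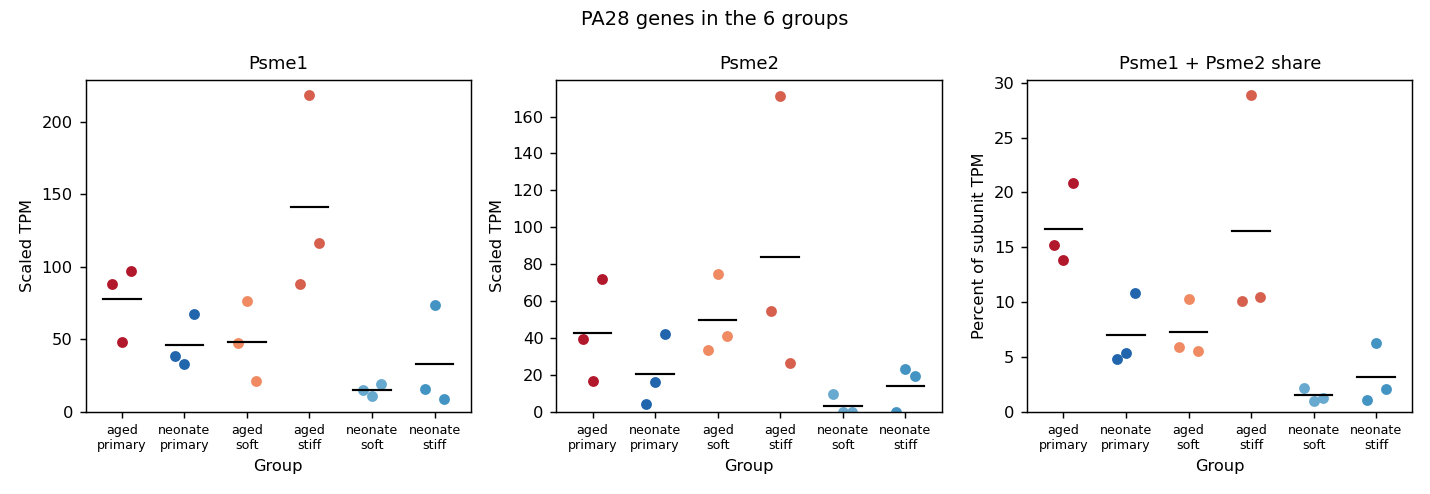
Levels of Psme1 and Psme2 (scaled TPM) and the share of both genes in the subunit TPM (percent) in each library (points) of the 6 groups, with group means as lines. On every substrate the aged shares lay above the neonate ones: 13.8% to 20.9% against 4.83% to 10.8% in primary cells, 5.57% to 10.3% against 0.979% to 2.19% on soft gels and 10.1% to 28.9% against 1.03% to 6.28% on stiff gels.

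On soft hydrogels the same age comparison was made in culture. Psme2 rose in aged cells and was the 1 member called of 48 (limma), beside 1.56% of all tested genes; voom called 1 member as well, also Psme2, beside 6.21%. It was at 33.3, 74.4 and 41.2 scaled TPM in aged soft libraries and at 9.36, 0 and 0 in neonate soft libraries. All aged libraries were higher, and the difference was 4.45 (SE 1.11, limma, adjusted p = 0.0376). The values rest on 3.33, 6.19 and 12.4 read pairs against 1.89, 0 and 0. Aged soft libraries detected 10536 to 13861 genes and 30.8% to 66.9% of olfactory receptor genes, and neonate soft libraries 7834 to 9629 and 2.01% to 18.9%, and the part of this in the difference was not tested. The call was lost in 10 of 16 alternatives, with adjusted p from 0.00816 to 0.185 over all of them: 0.0741 without the broad libraries, and 0.0671 to 0.185 without any single aged soft replicate or without neonate soft replicate 2 or 3.

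Psme1 was at 47.4, 76 and 21.1 in aged soft and 15.1, 10.6 and 19.3 in neonate soft libraries. The groups did not overlap, and the difference was 1.48 (SE 0.72, limma, adjusted p = 0.298). Together the 2 genes gave 5.9%, 10.3% and 5.57% of subunit TPM in aged and 2.19%, 0.979% and 1.27% in neonate libraries. Psme3 was likewise higher in all 3 aged libraries, at 32.9, 20.8 and 25.8 against 16.6, 8.92 and 10.7 (1.09, SE 1.04), and Psme4 overlapped (8.81, 16.6 and 2.39 against 2.38, 0.138 and 4.5). The Psme genes had a median difference of 1.54 and the 6 Psmc genes one of -0.07, against 0.86 for all genes.

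Core genes on soft gels did not move together. Psmb5 was lower in every aged library, at 81.1, 59.5 and 90.6 against 141, 212 and 279 (-1.40, SE 0.73, limma, adjusted p = 0.329). In contrast Psma7 was slightly higher in every aged library, at 192, 201 and 184 against 173, 152 and 133 (0.34, SE 0.56). Psma1, a ring subunit, had the lowest difference of the class (-2.59, SE 1.40), at 0.686, 13.5 and 1.67 against 15.7, 22.2 and 35.4, and Psmb3 the highest (1.90, SE 1.37) at a mean of at least 20. Psmb7 was at 94.1, 201 and 6.24 against 55.2, 79.1 and 93.8, spanning the neonate values. The lid deubiquitinase gene Psmd14 had the lowest regulatory difference (-1.82, SE 1.51) at such a mean. In all, 4 members were higher and 2 lower without overlap, beside 16% and 3.68% of all tested genes, and 2 members, both higher, had an unadjusted p under 0.05, beside 14.2%.

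Psmb8 was above 0 in 3 aged and 1 neonate soft libraries, Psmb9 in 2 and 1, and Psmb10 in 3 and 3. Psmb8 was at 11.8, 15.9 and 2.03 against 0, 6.28 and 0, Psmb9 at 15.7, 4 and 0 against 0, 0 and 6.16, and Psmb10 at 24, 23 and 22.9 against 9.26, 9.12 and 63.4. All 3 genes overlapped between the groups, with adjusted p of 0.455, 0.614 and 0.866 in limma. Their share of the catalytic genes, 22.7%, 13.3% and 17.8% against 4.52%, 4.95% and 15.7%, overlapped through neonate soft replicate 3, where Psmb10 was high. The microglia sum was higher in aged soft libraries too, at 423 to 857 against 51.4 to 122, with 13 to 14 against 5 to 7 of the 15 genes above 0. Endothelial sums and the summed class I and interferon genes described below were likewise higher. The part of any of these in PA28 was not tested.

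**Figure D4:**
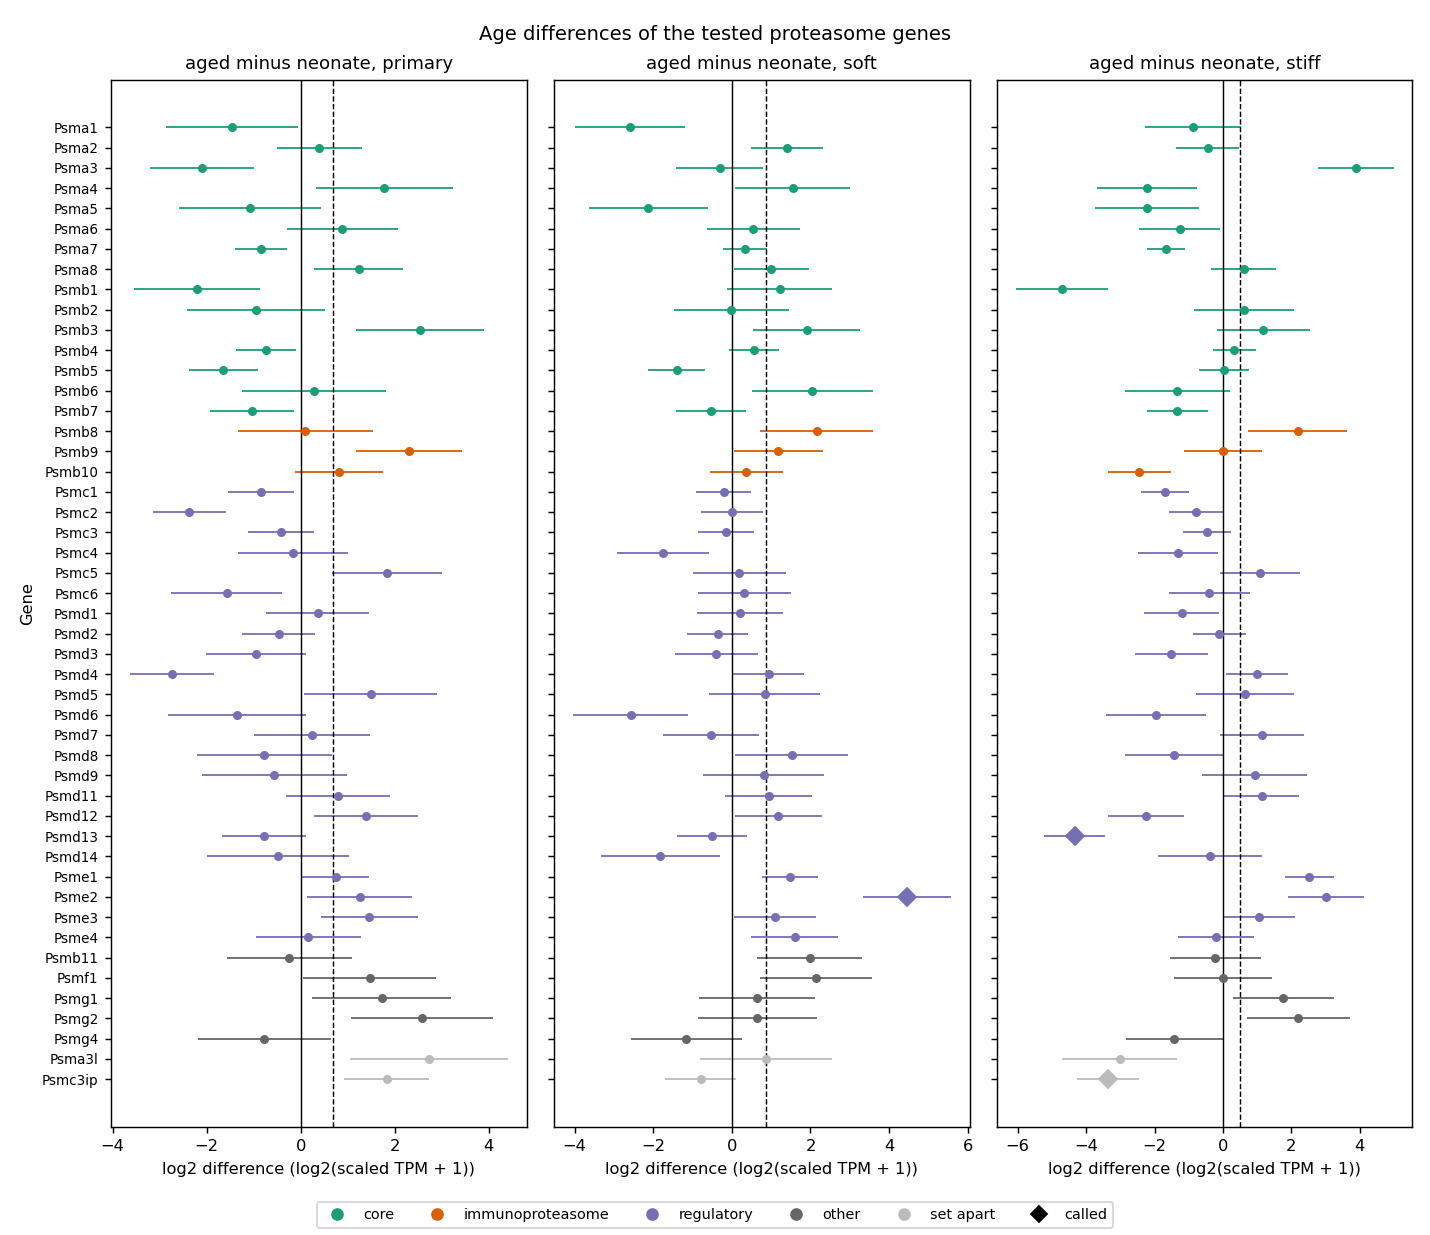
Difference between aged and neonate libraries on the log2(scaled TPM + 1) scale (points, horizontal axes) with its SE (bars) for the 48 tested genes (rows) in primary cells, on soft and on stiff gels; diamonds are called genes and the dashed line is the median of all tested genes. The diamonds are Psme2 on soft gels at 4.45, and Psmd13 and Psmc3ip on stiff gels at -4.34 and -3.35.

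On stiff hydrogels Psmd13 fell in aged cells. It was listed at 0, 0 and 15.5 scaled TPM in aged stiff libraries and was at 121, 30.0 and 35.3 in neonate stiff libraries. All aged libraries were lower, and the difference was -4.34 (SE 0.89, limma, adjusted p = 0.00569). Read pairs behind these values were 0, 0 and 1.95 against 17.1, 2.94 and 4.79. Detection differed between these libraries as well, with 34, 22 and 26 of the 42 subunit genes above 0 in aged and 31, 31 and 30 in neonate stiff libraries. Microglia sums were higher and OPC sums lower in aged stiff libraries. The part of detection or of cell composition in the difference was not tested. With Psmc3ip, which also fell, 2 of the 48 members were called, beside 2.18% of all tested genes, and voom called 1 (Psmd13, adjusted p = 0.0263), beside 2.29%. The Psmd13 call held in 13 of 16 alternatives, among them without the broad libraries (-3.67, adjusted p = 0.0414). It was lost without scaling (adjusted p = 0.0565), where the groups overlapped (0, 0 and 22.4 against 104, 13.6 and 29.0), in a fit of only the 2 groups (0.126) and without neonate stiff replicate 1 (0.0555).

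Psmc3ip was at 0, 4.4 and 0 in aged stiff and 12, 35.4 and 11.1 in neonate stiff libraries (-3.35, SE 0.90, limma, adjusted p = 0.045). The call held in 5 of 16 alternatives and was lost with any replicate left out other than aged stiff replicate 2, with adjusted p from 0.0164 to 0.482 over the alternatives. Reads in the 44 bases it shares with Mlx on the opposite strand cannot be assigned.

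PA28 genes stood higher in aged stiff libraries without passing the test. Psme1 was at 88.3, 218 and 116 against 15.7, 73.8 and 8.5, without overlap (2.53, SE 0.72, limma, adjusted p = 0.0622). Psme2 was at 54.6, 171 and 26.2 against 0, 23 and 19.4, again without overlap (3.02, SE 1.11, limma, adjusted p = 0.208). Their joint share of subunit TPM was 10.1%, 28.9% and 10.5% against 1.03%, 6.28% and 2.06%. Psme1 passed in 2 of 16 alternatives, without scaling (adjusted p = 0.0163) and without neonate stiff replicate 2 (adjusted p = 0.0133). The Psme genes had a median difference of 1.80, while all tested genes had one of 0.49. Psme3 was at 11.6, 9.75 and 2.74 against 7.7, 5.41 and 0 and overlapped. Of the 15 microglia genes 8 to 13 were above 0 in aged and 2 to 3 in neonate stiff libraries. Tmem119, which marks resident microglia, was at 10.1, 0 and 10.8 against 0 in all 3. Endothelial sums were higher in aged stiff libraries too, and the part of either cell type in PA28 was not tested.

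Core genes on stiff gels had a median difference of -0.89, and 9 of 15 were below 0. Relative to all genes the median was -1.38, and it moved to -0.44 without the broad aged stiff replicate 1 and to -0.77 without replicate 2. Psma7 was lower in every aged library, at 139, 34.3 and 41.7 against 160.2, 236 and 177 (-1.67, SE 0.56, limma, adjusted p = 0.143). Psmb1 was listed at 0 in all aged stiff libraries and was at 50.4, 16.1 and 19.5 in neonate stiff ones (-4.71, SE 1.34, limma, adjusted p = 0.0638). Psmb5 varied widely, at 27, 240.0 and 362 in aged against 55.5, 199 and 206 in neonate libraries, so that its difference was 0.02 (SE 0.73). Psmb7 was lower in all 3 aged libraries (30.4, 79.7 and 92 against 98, 179 and 208). Psma3 was higher in all 3, at 15.3, 34.1 and 41.7 against 0, 6.54 and 0 (3.89, SE 1.10, limma, adjusted p = 0.0633), but Psma3l took 27.0, 0 and 18.1 of the same locus in the neonate libraries, and their sum overlapped.

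Of the immunoproteasome genes on stiff gels, Psmb10 was lower in every aged library, at 11.7, 0 and 14.6 against 16.6, 53.7 and 32 (-2.44, SE 0.93, limma, adjusted p = 0.228). Psmb8 was at 92.8 in aged stiff replicate 1, a broad library, and listed at 0 in the other 5 stiff libraries. Psmb9 was listed at 0 in all 6. The share of catalytic genes followed the single Psmb8 value, at 64.5%, 0% and 3.12% in aged against 9.76%, 11.2% and 7.18% in neonate libraries. Without overlap, 3 members were higher (Psma3, Psme1 and Psme2) and 6 lower (Psma7, Psmb1, Psmb7, Psmb10, Psmd13 and Psmc3ip), beside 5.61% and 4.79% of all tested genes. At an unadjusted p under 0.05 there were 3 higher and 6 lower members, beside 8.16% and 5.43%.

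**Figure D5:**
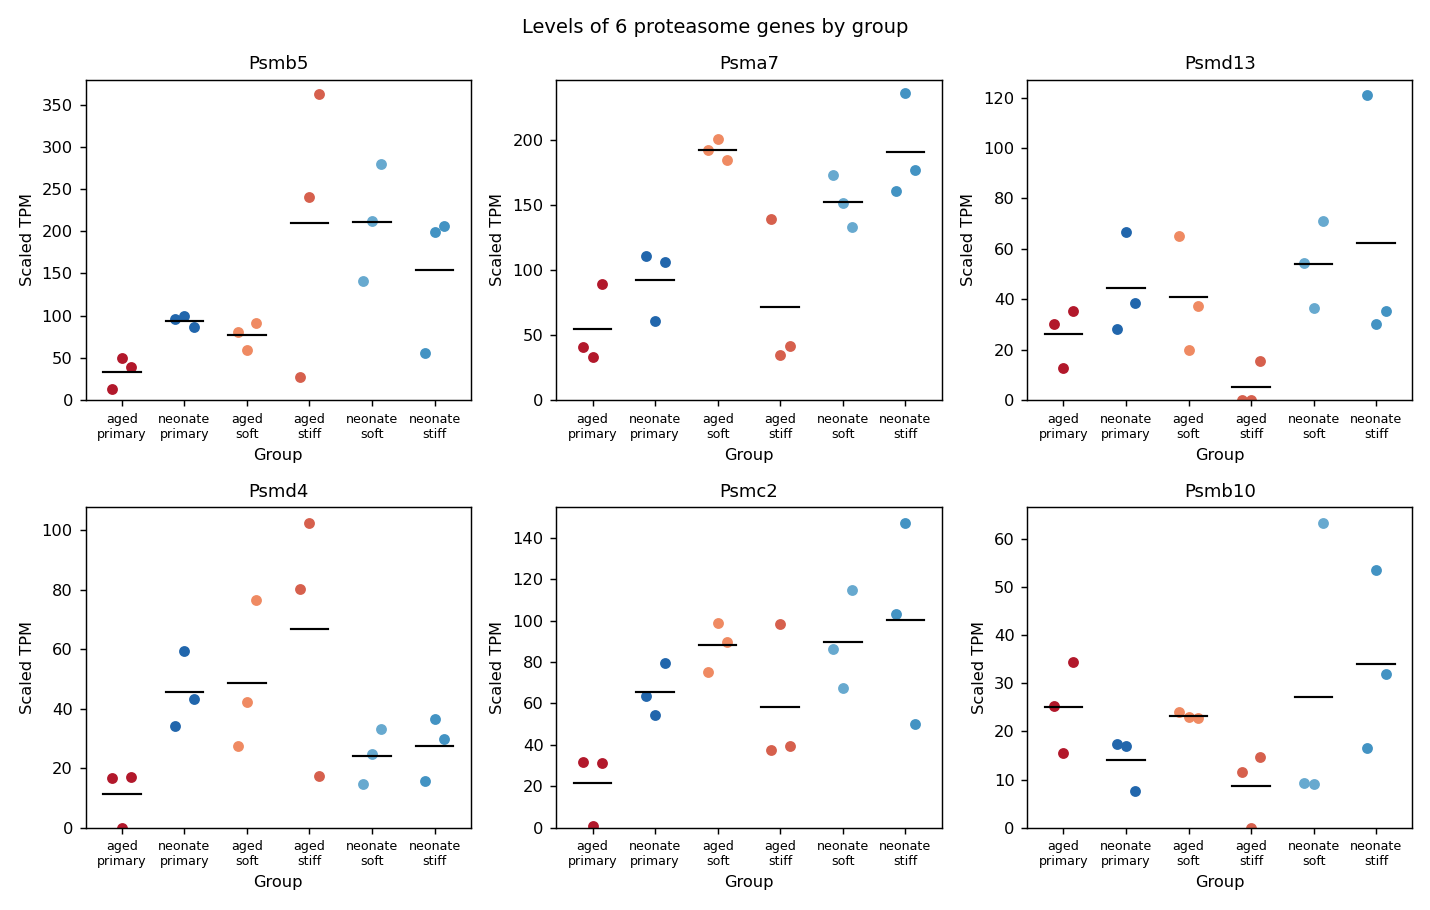
Scaled TPM (vertical axes) of 6 proteasome genes in each library (points) of the 6 groups, with group means as lines. Psmd13 is listed at 0 in 2 libraries, both aged stiff, Psmb5 is lowest in aged primary libraries on average (33.6), and Psma7 separates aged soft (184 to 201) from aged stiff libraries (34.3 to 139).

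The stiffness of the gel was compared within each age. In aged cells 0 of 48 members were called by limma and 0 by voom, beside 0.0792% and 0.0396% of all tested genes, and 7 had an unadjusted p under 0.05, beside 10.9%. Psmd13 had the largest difference, soft minus stiff, of 3.89 (SE 0.89, limma, adjusted p = 0.112), with 65.2, 19.96 and 37.4 scaled TPM on soft and 0, 0 and 15.5 on stiff gels, which did not overlap. Without aged stiff replicate 3 it was called (5.21, adjusted p = 0.00266). Psma7 did not overlap either, at 192, 201 and 184 against 139, 34.3 and 41.7 (1.70, SE 0.56, limma, adjusted p = 0.249), nor did Psmb1, with 13.1, 33.6 and 5.26 against 0 in all 3 (3.86, SE 1.34, adjusted p = 0.282).

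Psme1 ran the opposite way in aged cells, with 47.4, 76 and 21.1 on soft gels and 88.3, 218 and 116 on stiff ones (-1.60, SE 0.72, limma, adjusted p = 0.407), while Psme2 overlapped (-0.42, SE 1.11). Psma3 was lower on soft gels too (-2.03, SE 1.10). Psmb10 was at 24, 23 and 22.9 against 11.7, 0 and 14.6 (2.06, SE 0.93, limma, adjusted p = 0.414), with an SD of 0.615 on soft gels. Psme3 was higher on soft gels in both ages without overlap, at 32.9, 20.8 and 25.8 against 11.6, 9.75 and 2.74 in aged and 16.6, 8.92 and 10.7 against 7.7, 5.41 and 0 in neonate cells (1.76 and 1.73, SE 1.04 each; limma, adjusted p = 0.567 and 1). In aged cells 5 members were higher and 2 lower on soft gels without overlap, beside 6.63% and 1.69% of all tested genes.

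In neonate cells 0 members were called between soft and stiff gels by limma and 0 by voom, beside 0% and 0.0396% of all tested genes. An unadjusted p under 0.05 was found for 3, beside 2.89%. They were Psma2 (23.1, 8.49 and 0 on soft against 70.6, 33 and 48 on stiff gels), Psma4 (5.79, 0 and 0 against 27.4, 26.3 and 8.08) and Psmd7, a lid subunit (30.1, 24.8 and 13.6 against 0, 13.8 and 0), each with an adjusted p of 1 in limma. Psmb7 was lower on soft gels in every library (55.2, 79.1 and 93.8 against 98, 179 and 208), and Psmb5 overlapped (141, 212 and 279 against 55.5, 199 and 206). At a mean of at least 20, Psma1 had the highest core difference (2.06, SE 1.40), Psmd3 the lowest regulatory one (-0.99, SE 1.06), and Psmb10 stood at -0.75 (SE 0.93). Without overlap, 1 member was higher and 3 lower, beside 3.8% and 2.53%.

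Whether stiffness acted differently in aged and neonate cells was tested as an interaction. Limma and voom each called 0 members, beside 0.0066% and 0% of all tested genes, and 6 had an unadjusted p under 0.05, beside 5.24%. The 6 were Psmb1 (5.93, SE 1.90), Psmd13 (3.84, SE 1.26), Psma3 (-4.20, SE 1.56), Psma7 (2.01, SE 0.79), the low Psmd12 (3.44, SE 1.57) and Psmb10 (2.81, SE 1.32), with adjusted p from 0.761 to 0.941 in limma. For Psme2 the interaction was 1.44 (SE 1.58), and for Psme1 it was -1.05 (SE 1.01). The age differences of PA28 on soft and on stiff gels were therefore not shown to differ.

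Cells on both gels were compared with primary cells of the same age to describe the change with culture. In aged cells no subunit gene was called, Psmc3ip fell, and several subunits stood higher in culture. Limma called 1 of 48 members (Psmc3ip), beside 1.11% of all tested genes, and voom called 0, beside 2.88%. Psmc3ip was at 20.2, 42.2 and 37 in aged primary libraries and at 0 to 11.7 on gels (-3.13, SE 0.78, limma, adjusted p = 0.0458), and the call held in 5 of 19 alternatives, with adjusted p from 0.0111 to 0.321. It was lost without the broad libraries (0.0817) and with any replicate left out other than aged soft replicate 3 or aged stiff replicate 2. The core genes had a median difference of 0.76 and regulatory genes of 0.37, against 0.05 for all genes. Relative to all genes the core median of 0.71 moved to 0.19 without aged primary replicate 1, 0.28 without aged soft replicate 2 and 1.11 without aged soft replicate 1. The regulatory one, 0.32, turned to -0.04 without aged primary replicate 1, and on leaving out aged stiff replicate 1 or 3 it was 0.18 or 0.60. Cell type markers moved with culture too. Of 15 microglia genes 5 were called lower and of 9 OPC genes 1 higher, beside 1.11% of all tested genes called in either direction. At an unadjusted p under 0.05, 12 microglia genes were lower, beside 6.25%, and 5 OPC genes higher, beside 3.49%. The median differences were -3.30 and 1.52, against 0.05 for all genes. The part of these cell types in the differences of the proteasome genes was not tested.

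Psmd4 and Psmc2, low in aged primary cells, were higher in every aged gel library. On soft gels Psmd4 had 27.5, 42.3 and 76.5 and on stiff gels 80.2, 103 and 17.5, against at most 17 in primary cells (2.86, SE 0.78, limma, adjusted p = 0.0709). Psmc2 was at 75.5, 98.8 and 89.9 and at 37.4, 98.3 and 39.3, against at most 31.9 (2.43, SE 0.68, limma, adjusted p = 0.0827). Psmd2, a scaffold subunit of the regulatory particle, was at 19.3 to 58.7 on gels and 17, 3.31 and 13.7 in primary cells (1.89, SE 0.67, adjusted p = 0.244). These 3 were the members higher without overlap, beside 0.812% of all tested genes, and 1 was lower, beside 2.93%; without scaling 0 were higher and 1 lower. Psmb5 had the highest core difference (1.75, SE 0.63, adjusted p = 0.266), with aged stiff replicate 1 at 27 inside the primary range. Psme1 and Psme2 differed by 0.01 (SE 0.62) and 0.58 (SE 0.96). At an unadjusted p under 0.05 there were 6 higher members and 1 lower, beside 3.49% and 6.25%. The aged primary libraries are the same in this comparison as in that of age, so low values there enter both.

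At a mean of at least 20, Psma2 had the lowest core difference between aged gel and primary cells (-0.20, SE 0.79), Psmd13 the lowest regulatory one (-1.35, SE 0.77), and Psmb8 and Psmb10 stood at 1.84 (SE 1.24) and -1.07 (SE 0.81). In neonate cells limma and voom called 0 members, beside 0.099% and 0.469% of all tested genes, and 3 had an unadjusted p under 0.05, beside 4.7%. Psma3 was lower on gels, at 33.6, 40.3 and 20.6 in primary cells against 24.4, 0 and 26.1 on soft gels and 0, 6.54 and 0 on stiff gels (-2.91, SE 0.96, limma, adjusted p = 0.513). Psma6 was higher in every gel library (16.4 to 34 against 5.36, 0 and 15.1; 2.47, SE 1.02), as was Psma7 (133 to 236 against 111, 60.3 and 106; 0.91, SE 0.48). Without scaling both overlapped, Psma6 with 10.5 to 28.1 on gels against 10.4, 0 and 24.6 and Psma7 with 87.3 to 216 against 214, 105 and 173. On scaled TPM these 2 were the members higher without overlap, beside 1.22% of all tested genes. Psmd2 had the highest regulatory difference (1.65, SE 0.67), Psme2 the lowest (-1.91, SE 0.96), and Psmb10 stood at 0.78 (SE 0.81). The difference between the ages in the response to culture was tested as well: limma and voom called 0 members, beside 0.112% and 0.561% of all tested genes, and 4 had an unadjusted p under 0.05 (Psmc2, Psmd4, Psma3 and Psmc3ip), beside 5.57%.

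Members outside the subunit classes were mostly scarce. The inhibitor gene Psmf1 was above 0 in 6 of 18 libraries and reached 38 and 46.0 in the broad aged primary and aged soft replicate 1, with 0 in all 3 aged stiff libraries. Of the chaperones of core assembly, Psmg1 was above 0 in 5 libraries, Psmg2 in 11 and Psmg4 in 13. Psmg2 was at 9.86, 9.05 and 9.31 in aged primary and 4.34, 0 and 0 in neonate primary libraries (2.57, SE 1.51, adjusted p = 0.542). Psmd10, a chaperone of the regulatory particle counted here with the Psmd genes, was above 0 only in the broad aged primary replicate 1 (30.9) and aged soft replicate 1 (32.1) and was not tested. Psmb11 was above 0 in 8 libraries, at most 24.6.

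Genes that feed or control the proteasome were read from lists chosen with earlier results of these data known. Alternatives are given for members only, so the dependence of calls of list genes on the processing is not shown. The part of cell composition in the differences of list genes was not tested. Of 4 assembly and transcription genes, 1 was called by age on stiff gels, beside 2.18% of all tested genes called in either direction. This was Nfe2l2, a factor of the antioxidant response, higher in aged cells with 44.2, 51.6 and 30.4 against 6.89, 0.268 and 15.2 (2.95, SE 0.79, limma, adjusted p = 0.0428). At an unadjusted p under 0.05, 2 of the 4 were higher and 1 lower there, beside 8.16% and 5.43% of all tested genes. Their median difference was -0.17, against 0.49 for all genes. On soft gels Nfe2l2 was at 38.4, 73.7 and 45.4 against 5.64, 10.4 and 8.53 (2.52, adjusted p = 0.107). The core chaperone gene Pomp was above 0 in 7 libraries.

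Of 18 shuttles and proteasome-associated genes, 1 rose and 1 fell in aged cells with culture, beside 1.11% of all tested genes called in either direction. Adrm1, a ubiquitin receptor of the regulatory particle, was at 20.5, 19.5 and 26.1 in aged primary cells, at 23.2, 120.3 and 169 on soft gels and at 112, 152 and 199 on stiff gels (2.26, SE 0.56, limma, adjusted p = 0.0408). Ube3a, a ubiquitin ligase, was at 28.8, 46.3 and 42.5 in primary cells and at 0 to 13.5 on gels (-3.19, SE 0.81, limma, adjusted p = 0.0469). No gene of the shuttle and assembly lists was called in the comparisons of age in primary cells, of age on soft gels, or of soft with stiff gels.

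Class I loading and interferon genes, which share their inducers with PA28 and the immunoproteasome, had median differences between aged and neonate cells of 2.45 in primary cells, 1.42 on soft and 0.94 on stiff gels, against 0.69, 0.86 and 0.49 for all genes. Of the 17 tested, 2 rose with age in primary cells, 1 on soft gels and 0 on stiff gels, beside 2.6%, 1.56% and 2.18% of all tested genes called in either direction. At an unadjusted p under 0.05, 9, 6 and 4 were higher, beside 9.21%, 14.2% and 8.16%. B2m, the light chain of class I, was at 186, 379 and 394 in aged primary and 29.9, 9.72 and 18 in neonate primary libraries (4.04, SE 0.65, limma, adjusted p = 0.00057). On soft gels B2m was at 295, 437 and 419.8 against 25.6, 24.3 and 29.4 (3.79, SE 0.65, limma, adjusted p = 0.00151). Usp18, an interferon-induced protease, rose in aged primary cells, with 48.8, 32.4 and 47.1 against 0 in all 3 neonate libraries (5.43, SE 1.14, limma, adjusted p = 0.00725). Tap1, between Psmb8 and Psmb9, was at 32.5, 75.2 and 43.4 against 0, 5.91 and 6.24 (3.71, SE 1.05, limma, adjusted p = 0.0552). The summed level was 729 to 1238 in aged primary and 178 to 238 in neonate primary libraries, and on gels 513 to 955 and 407 to 633 for aged against 204 to 331 and 253 to 347 for neonate cells. Microglia express these genes as well, and the part of microglia or other cells in the sums was not tested.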

How the data were processed

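RNA of 18 libraries in 6 groups of 3 was sequenced from a stranded total RNA kit. The authors assembled expression per transcript with StringTie 1.3.2d on the rn6 annotation without a strand option, per the file headers, and deposited TPM and coverage. The submitters' processing notes also name Trimmomatic, HISAT2 and Bowtie without their role or version. Here the deposited TPM were summed per gene and divided by a median-of-ratios factor based on the 1644 genes that no library lists at 0. A gene was tested if 3 libraries or more reached a TPM of 1. The test was limma 3.58.1 in R 4.3.3, with a trended variance, on log2(scaled TPM + 1) with 6 group means. P-values were adjusted by Benjamini and Hochberg over all tested genes, with a threshold of 0.05; a fold change on this scale understates that of low genes. Overlap between groups is read on scaled TPM unless stated. Read pairs are the deposited coverage times length, over 300 bases. The fit was tested on simulated data, in which only genes with more read pairs than most members have were changed. That test therefore does not cover the scarcer members.

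The members and lists were chosen with earlier results of these data known. Named with values are every called member, the 6 catalytic genes, the 4 Psme genes, the members of highest and lowest mean, and in each comparison and class the largest rise and fall at a mean of at least 20 scaled TPM; members without overlap or with an unadjusted p under 0.05 were named after their values were seen. Alternatives were another pseudocount, filters, scalings, voom, array weights, fits restricted to the compared groups, a replicate block, and leaving out the broad libraries or each replicate. One gene of the ubiquitin list is not reported here.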

Additional observations from a re-analysis of the deposited data

Results flagged for a closer look

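Psma7 differed between gels in the direction of its age difference. Aged minus neonate was 0.34 on soft gels, where all aged libraries were higher, and -1.67 on stiff gels, where all were lower, a difference of 2.01 (SE 0.79). The interaction had an unadjusted p of 0.0168 in limma and an adjusted p of 0.88, so it did not pass. Neither age difference passed on its own, and without scaling the libraries overlapped on both gels (142 to 261 against 87.3 to 216 on soft, 47.0 to 112 against 107 to 145 on stiff gels).

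Psma3 was lower in every aged primary library (-2.10) and higher in every aged stiff library (3.89), which puts these 2 differences -5.99 apart. The difference between them was not tested. Psma3l lies in the same locus, and with both genes summed the groups overlapped in primary cells and on stiff gels.

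Psmc3ip was higher in every aged primary library, at 20.2, 42.2 and 37 against 5.4, 11.3 and 8.77 (1.83), and lower in every aged stiff library (-3.35), a gap of 5.18 that was not tested.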

How the results depend on the processing

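Groups of 3 libraries and a few read pairs per gene limit every call. None of the 4 calls of members held in all alternatives, and none of them changed direction. The count of members called in primary cells by age was 0, and became 1 with quantile normalization (Psmd4) and 2 with array weights (Psmd4 and Psmc2); leaving out each replicate gave 0 to 0. For soft against stiff gels in aged cells it was 0, with 0 to 1 over the replicates left out. By age on soft gels it was 1, and became 0 with a pseudocount of 0.1, quantile normalization, array weights, the broad libraries left out, or only the groups compared, and 0 to 1 with a replicate left out. By age on stiff gels it was 2, and became 1 with quantile normalization, voom or array weights, 0 with only the groups compared, and 0 to 3 with a replicate left out. An unchanged count can hide other members. Without scaling Psmd13 and Psmc3ip were both lost (limma, adjusted p = 0.0565 and 0.197), while Psme1 passed. Without the broad libraries Psmc3ip was lost (0.0771). Psma3 and Psma7 passed in 2 of 16 alternatives each. For culture in aged cells it was 1, and became 0 with a pseudocount of 0.1, no scaling, voom, array weights or only the groups compared, and 0 to 1 with a replicate left out. There Psmc3ip was also lost with quantile normalization and without the broad libraries (limma, adjusted p = 0.0869 and 0.0817). The cause of these changes was not tested. An alternative chosen after seeing the data read overlap on TPM without scaling: members higher and lower without overlap then numbered 4 and 3 by age on soft gels, 5 and 2 by age on stiff gels, 3 and 1 for soft against stiff in aged cells, 5 and 1 in neonate cells, and 0 and 4 for culture in neonate cells.

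Whether replicate numbers pair the libraries was not settled. Same-numbered libraries had median correlations of their deviations of 0.0134, 0.00575 and 0.00729 for replicates 1, 2 and 3. The highest were 0.233, 0.0514 and 0.151. With few read pairs per gene such correlations can be low in paired libraries too, so they cannot exclude pairing. With the replicate number as a block the counts were 0, 1, 2, 1 and 0 for age in primary cells, on soft and on stiff gels, and culture in aged and neonate cells, and 0 in the other comparisons, as without it.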
